A study of Mus musculus with 2 samples.

Results

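MHC class I molecules and the immunoproteasome were followed through 10 genes: the heavy chains H2-K1 and H2-D1, their light chain B2m, the peptide transporter and loading genes Tap1, Tap2 and Tapbp, the immunoproteasome subunits Psmb8, Psmb9 and Psmb10, and the proteasome activator subunit Psme2. The genes were chosen by symbol as known parts of the class I pathway, and all 10 had an entry among the 26037 genes of the table. RNA was sequenced from 1 control library and 1 library labelled MMP9 knockout, both of primary osteoclast cultures treated with RANKL, the cytokine that drives osteoclast formation. Marrow came from C57BL/6 mice aged 6 to 8 weeks and was cultured in 10% serum with 5 ng/ml M-CSF. Cells that did not attach were then given 30 ng/ml M-CSF over 3 days, after which the attached macrophages were exposed for 3 days to RANKL. The headings of the table hold the unexplained letters NCsh (control) and sh (knockout), so the sources used here do not settle whether Mmp9 was deleted or silenced. How many animals or cultures went into a library is likewise not stated in them. A single library per genotype allows no test, so each difference below describes these 2 libraries and has no replicate check.

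Class I molecules show peptides from the inside of a cell to CD8 T cells. The proteasome cuts cytosolic proteins into peptides, the transporter formed by Tap1 and Tap2 moves them into the endoplasmic reticulum, tapasin (Tapbp) holds empty class I molecules beside the transporter, and loaded complexes of heavy chain and B2m travel to the surface. Interferons are known to raise most of these genes, and in cells exposed to interferon the subunits Psmb8, Psmb9 and Psmb10 take the places of Psmb5, Psmb6 and Psmb7 in newly made proteasomes. Macrophages and their osteoclast progeny carry class I molecules, as nearly all nucleated cells do.

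Several of the genes lie together in the mouse MHC on chromosome 17, where Psmb9, Tap1, Psmb8 and Tap2 follow one another. RefSeq windows of 300 bases (250 before to 50 after the start, GRCm38.p6) were held for 9 of the 10 genes, Tap2 being the one without. Shown here are the windows of the heavy chains and the light chain, whose products form 1 complex, and that of Tap1, which takes in the whole interval to Psmb9. They lie at chr17:34000298-34000597 (H2-K1, minus strand), chr17:35262844-35263143 (H2-D1, plus), chr2:122147437-122147736 (B2m, plus) and chr17:34187306-34187605 (Tap1, plus). Capitals mark matches to the interferon response element, in a shorter (GAANNGAAA) and a longer spelling (GAAA, any 2 bases, GAAA), and to the kappa B element (GGG, any 5 bases, CCC) in the first 3 windows. In the Tap1 window they mark the kappa B match and the GC box (GGGCGG). Both strands were searched, and the kappa B letters read the same on both.
H2-K1: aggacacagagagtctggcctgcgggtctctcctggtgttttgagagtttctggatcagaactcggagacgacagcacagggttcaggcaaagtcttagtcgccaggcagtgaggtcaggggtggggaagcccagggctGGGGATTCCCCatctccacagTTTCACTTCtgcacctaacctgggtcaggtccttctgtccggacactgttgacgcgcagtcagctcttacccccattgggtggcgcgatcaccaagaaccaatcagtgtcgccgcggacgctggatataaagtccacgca
H2-D1: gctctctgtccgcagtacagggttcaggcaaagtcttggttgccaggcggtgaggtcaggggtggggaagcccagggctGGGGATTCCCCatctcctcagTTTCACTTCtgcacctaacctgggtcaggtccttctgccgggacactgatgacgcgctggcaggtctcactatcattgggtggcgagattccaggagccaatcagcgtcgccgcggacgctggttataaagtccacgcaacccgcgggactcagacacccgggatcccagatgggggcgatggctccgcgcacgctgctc
B2m: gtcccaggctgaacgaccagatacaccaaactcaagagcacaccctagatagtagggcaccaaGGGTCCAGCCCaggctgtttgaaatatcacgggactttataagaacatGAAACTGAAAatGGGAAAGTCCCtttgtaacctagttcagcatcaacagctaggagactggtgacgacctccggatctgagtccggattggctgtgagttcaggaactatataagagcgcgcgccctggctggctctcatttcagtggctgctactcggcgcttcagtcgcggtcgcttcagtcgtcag
Tap1: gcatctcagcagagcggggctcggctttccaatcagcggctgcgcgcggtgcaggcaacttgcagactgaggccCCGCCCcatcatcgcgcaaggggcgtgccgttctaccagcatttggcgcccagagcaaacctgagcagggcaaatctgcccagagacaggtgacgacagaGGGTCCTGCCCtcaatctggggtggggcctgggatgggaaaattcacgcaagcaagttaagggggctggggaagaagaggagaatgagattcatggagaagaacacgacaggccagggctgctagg

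The H2-K1 and H2-D1 windows were 89.5% identical over 239 aligned bases, and each held GGGGATTCCCC followed closely by TTTCACTTC. Counted from the annotated start base of each gene, the first lay at -111 to -101 in H2-K1 and -171 to -161 in H2-D1. In B2m GAAACTGAAA lay at -139 to -130 with GGGAAAGTCCC just behind it at -127 to -117 and a further kappa B match, GGGTCCAGCCC, ahead of it at -187 to -177. Of all 32851 windows, 7.52% held the shorter interferon response element spelling, 3.44% the longer one and 14.0% the kappa B element. The kappa B letters matched in 5 of the 9 windows (H2-K1, H2-D1, B2m, Tap1 and Psmb9), where the match of Tap1 and Psmb9 is the same stretch read from both sides. The starts of Psmb9 and Tap1 are 225 bases apart on opposite strands, so that 275 bases are common to both windows. A gamma-activated site (TTCNNNGAA, in 8.30% of windows) matched in Psmb8 alone of the 9, and the GC box, in 35.7% of windows, in Tap1, Psmb9, Tapbp and Psme2. The TATA box letters (TATAAA, in 13.6% of windows) matched in H2-K1, H2-D1, B2m and Psmb8, at differing places. They lay at -26 to -21 in H2-D1 and at 35 to 40, behind the annotated start, in H2-K1. In B2m they lay at -152 to -147 on the opposite strand (TTTATA) and in Psmb8 at -237 to -232. The matches are letters in a window and say nothing of binding.

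Reads recovered from the values of all genes summed to 20678441 in control and 17741432 in the knockout. These are reads assigned to genes, and the total reads of each library are not known here. Levels below are normalised read counts, in which reads are multiplied by a constant of the library and gene length plays no part. Intervals in parentheses are 95% intervals that cover counting error alone, and as PCR copies were not marked, reads need not be independent molecules. Mmp9 was 139.4 in control and 3.87 in the knockout, from 5609 and 163 reads. The 10 osteoclast markers, Mmp9 among them, summed to 6824 and 395, with Acp5 at 1828 and 114 and Ctsk at 3745 and 42.9. The 8 macrophage markers summed to 1008 and 1362, with Cd14 at 15.5 and 166 and Cd68 at 150.2 and 60.9. All 10 osteoclast markers were past 2-fold downward, and of 7 compared macrophage markers 5 were past it upward and 1 downward. Calcr, Oscar, Itgb3 and Fcgr1 were compared only through the library where they are high, so these counts include genes that had to differ. These marker differences and the genotype cannot be told apart here, and in such bulk RNA fewer cells of a type and less RNA per cell cannot be told apart either. Markers of other cells were low: summed levels were 0.0994 and 0.285 for 8 B cell genes, 0 and 0.404 for 11 granulocyte genes, and 0.969 and 0.760 for 10 stromal and endothelial genes. The 12 T and NK cell genes summed to 1.44 and 7.72, of which Lck gave 1.39 and 7.72, while Cd3e, Cd3g, Cd4, Cd8a and Ncr1 had no read in either library. The 8 dendritic cell genes summed to 16.3 and 2.49, mostly from Itgax and Zbtb46, with Flt3 and Cd209a at no read in both. The part of these cells in the results below was not tested.

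The 10 genes did not differ between the libraries in 1 direction. In the knockout Tap1 was past 2-fold upward, Tap2 past 2-fold downward, and the other 8 lay within 2-fold. A gene counts as past 2-fold when the log2 of the knockout level plus 1 over the control level plus 1 is at least 1 or at most -1. Among all 11126 genes with a mean level of at least 1, 4.0% were higher and 9.58% lower by this measure, so 1 of 10 in each direction is near the background. These are 445 and 1066 genes, a split that went to 674 and 684 with both libraries scaled to the same sum. The median log2 ratio of the 10 genes was 0.06, against -0.16 over all compared genes. Of the ratios 5 were above 0 and 5 below, beside 37.3% of all compared genes above 0, and 7 of the 10 lay above the median of all compared genes. All 10 genes were above the level filter in both libraries, with between 87 and 9065 reads each, so the filter chose none of them.

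**Figure D1:**
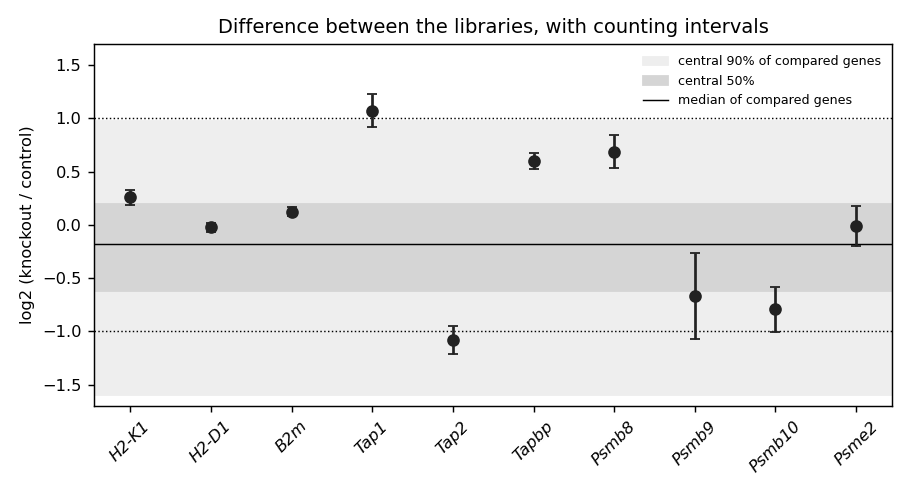
Log2 of the knockout level over the control level, without a pseudocount, for each gene; bars are 95% intervals for counting error, the grey bands hold the central 50% and 90% of compared genes, the solid line is their median and dotted lines mark 2-fold. Tap1 lies above and Tap2 below 2-fold, with the 8 other genes between them.

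The peptide transporter showed the widest gap within the group. Tap1, which encodes one half-transporter, was 12.3 in control and 25.9 in the knockout, from 496 and 1091 reads. That is 2.10-fold higher in the knockout (1.89 to 2.34), and the log2 ratio of 1.01 lay above 96.1% of compared genes. Tap2, which encodes its partner, was 37.5 in control and 17.7 in the knockout, from 1509 and 746 reads. This was 2.12-fold lower in the knockout (1.94 to 2.31), with a log2 ratio of -1.04 that lay above only 8.81% of compared genes. Both calls sit close to the threshold: with a pseudocount of 5 the values were 0.84 for Tap1 and -0.90 for Tap2, and Tap2 was -0.87, -0.86 and -0.77 under 3 other scalings. The counting interval of each fold reaches below 2, so at this depth a difference of 2-fold is not settled for either gene.

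The ratio of the 2 transporter genes within a library does not depend on how the libraries are scaled. Tap1 gave 0.329 reads for each Tap2 read in the control (0.296 to 0.364) and 1.46 in the knockout (1.33 to 1.61). The ratio was 4.45-fold higher in the knockout (3.88 to 5.11, counting error only). Per kilobase of the longest coding transcript, Tap2 stood above Tap1 in the control, at 10.9 and 4.17, and Tap1 above Tap2 in the knockout, at 8.78 and 5.15. The order of the 2 transporter genes thus turned over between the libraries, and their counting intervals did not overlap in either.

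Tapasin, the bridge between the transporter and empty class I molecules, was among the higher genes. Tapbp was 59.4 in control and 90.1 in the knockout, or 1.52-fold higher (1.44 to 1.60), and its log2 ratio of 0.59 lay above 91.5% of compared genes. Annotated genes overlap it on both strands, Zbtb22 with it on the plus strand (11.6 and 10.1) and the antisense Gm19412, and 21.0% of the 50-base stretches of its transcript also occur in transcripts of other genes, Gm19412 first among them.

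The class I molecules themselves differed little. H2-D1, a classical heavy chain, was 195 in control and 192 in the knockout, a fold of 0.984 whose interval holds 1 (0.954 to 1.02). H2-K1, the other classical heavy chain, was 73.2 and 87.6, or 1.20-fold higher in the knockout (1.14 to 1.26). B2m, the light chain that pairs with the classical heavy chains, was 197 and 215, or 1.09-fold higher (1.06 to 1.12). The log2 ratios of the 3 genes were -0.02, 0.26 and 0.12, and that of H2-D1 turned positive under each of 3 other scalings (0.16, 0.16 and 0.26). H2-K1 and H2-D1 went apart slightly, with 0.376 H2-K1 reads for each H2-D1 read in the control (0.361 to 0.393) and 0.458 in the knockout (0.440 to 0.476). Per kilobase, B2m exceeded the sum of H2-K1 and H2-D1 1.67-fold in control and 1.72-fold in the knockout. Other heavy chains, such as those of the H2-Q and H2-T groups, are not in this sum.

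The heavy chain genes resemble one another, and their values are uncertain to that extent. The longest coding transcripts of H2-K1 and H2-D1 were 90.8% identical over 1582 aligned bases. Of their 50-base stretches 8.79% (H2-K1) and 14.3% (H2-D1) also occur in transcripts of other genes, with H2-D1 and H2-Q1 leading for H2-K1 and H2-Q1 and H2-Q7 for H2-D1. With stretches of 100 bases these shares were 0% and 4.64%. The sources used here do not say how reads that match several genes were counted. B2m and Psmb10 had no such stretch at either length.

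**Figure D2:**
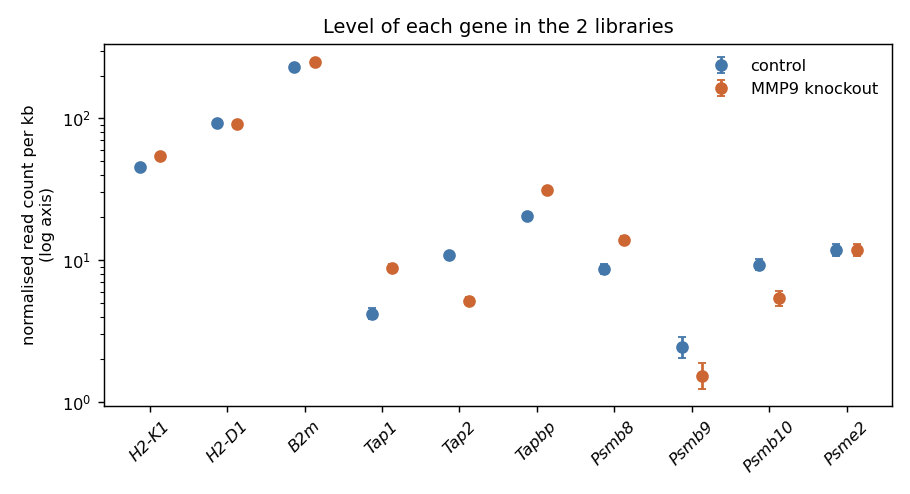
Normalised read count per kilobase of the longest coding transcript (log axis) in control and in the knockout; bars are exact 95% intervals for counting error and are often smaller than the points. B2m is highest in both libraries at 230 and 250, and Psmb9 lowest at 2.43 and 1.53.

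The 3 immunoproteasome subunits went in different directions. Psmb8, which replaces Psmb5, was 14.1 in control and 22.7 in the knockout, or 1.61-fold higher (1.45 to 1.79). Psmb9, which replaces Psmb6, was 3.28 and 2.07, 1.59-fold lower in the knockout (1.20 to 2.10). Psmb10, which replaces Psmb7, was 12.2 and 7.03, 1.73-fold lower (1.496 to 2.01). The log2 ratios were 0.65, -0.48 and -0.71, so none passed 2-fold, and their signs were the same under the 3 other scalings. Pseudocounts and level filters cannot change a sign, and Psmb9 was not compared with a mean level of at least 5. Psmb9 had the fewest reads of the 10 genes, 132 and 87, and its interval is the widest.

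The 3 constitutive catalytic subunits were lower in the knockout, Psmb7 by the least and not with both libraries scaled to the same sum, which gave it a log2 ratio of 0.01. Psmb5 was 39.9 in control and 24.2 in the knockout, 1.65-fold lower (1.52 to 1.78). Psmb6 was 50.02 and 25.4, 1.97-fold lower (1.83 to 2.12), and Psmb7 was 83.2 and 68.8, 1.21-fold lower (1.15 to 1.27). The log2 ratios were -0.70, -0.95 and -0.27, so none passed 2-fold.

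Set against their constitutive counterparts, the inducible subunits differed in a way that scaling cannot alter. Psmb8 gave 0.353 reads for each Psmb5 read in the control (0.320 to 0.389) and 0.938 in the knockout (0.858 to 1.03), a ratio 2.66-fold higher in the knockout (2.33 to 3.03). Psmb9 gave 0.0656 reads for each Psmb6 read in control and 0.0813 in the knockout, and the 1.24-fold difference had an interval that holds 1 (0.937 to 1.64). Psmb10 gave 0.146 reads for each Psmb7 read in control and 0.102 in the knockout, a ratio 1.43-fold lower (1.23 to 1.67). One inducible subunit thus gained on its counterpart, one lost, and for the third no difference was detectable at this depth. Per kilobase the constitutive gene stayed above the inducible one in every pair and library: Psmb5 exceeded Psmb8 5.13-fold in control and 1.93-fold in the knockout, Psmb6 exceeded Psmb9 25.8-fold and 20.8-fold, and Psmb7 exceeded Psmb10 7.72-fold and 11.1-fold.

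**Figure D3:**
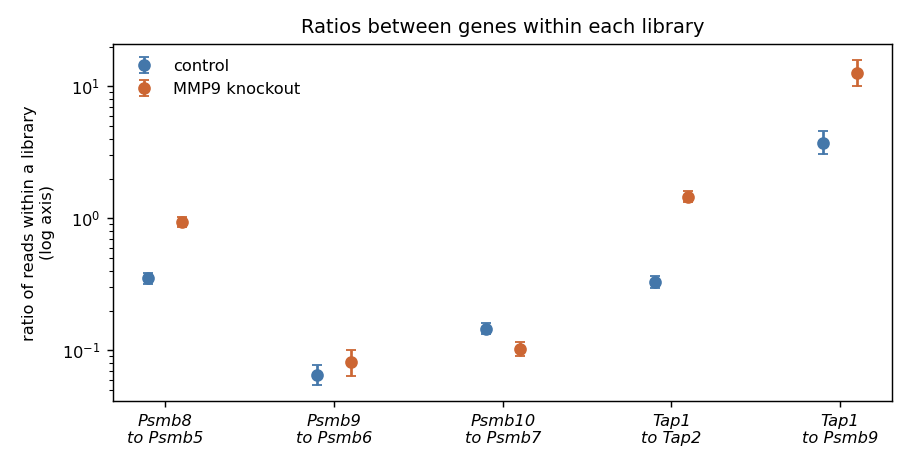
Ratio of reads between named genes within each library (log axis), for the 3 pairs of inducible and constitutive subunits, for Tap1 to Tap2 and for Tap1 to Psmb9; bars are exact 95% intervals for counting error. Psmb8 to Psmb5 goes from 0.353 to 0.938 and Tap1 to Tap2 from 0.329 to 1.46, while Psmb9 to Psmb6 overlaps between the libraries.

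Psme2, a subunit of the activator ring that opens the proteasome core, was 11.4 in control and 11.3 in the knockout, a fold of 0.996 (0.874 to 1.13). Its log2 ratio of -0.01 turned positive under each of 3 other scalings (0.16, 0.17 and 0.26). Psme2 has a near-identical copy: 59.3% of its 50-base and 44.5% of its 100-base stretches also occur in other genes, mainly Psme2b. The table lists Psme2b-ps at 21.9 and 25.3, above Psme2 in both libraries, so the split of reads between the copies is uncertain. Its partner subunit gene Psme1 was 22.1 and 16.9, and Psme2 reads per Psme1 read were 0.514 in the control (0.458 to 0.576) and 0.672 in the knockout (0.597 to 0.756).

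Adjacent genes on chromosome 17 did not all share a direction, though Tap1 and Psmb8, side by side, were both higher in the knockout. In order, Psmb9 had a log2 ratio of -0.48, Tap1 of 1.01, Psmb8 of 0.65 and Tap2 of -1.04. Psmb9 and Tap1, whose starts share the interval printed above, went opposite ways: Tap1 gave 3.76 reads for each Psmb9 read in the control (3.10 to 4.59) and 12.5 in the knockout (10.1 to 15.8), 3.34-fold more (2.50 to 4.46). Psmb8 reads per Psmb9 read were 4.30 and 10.99. In GRCm38 (GENCODE M21) Psmb9 spans chr17:34181987-34187764 on the minus strand, Tap1 chr17:34187553-34197225, Psmb8 chr17:34197721-34201454 and Tap2 chr17:34203527-34216321, the last 3 on the plus strand. The models of Psmb9 and Tap1 overlap at their starts. The antisense gene Gm20496 (6.24 and 8.55) overlaps Psmb8 and Tap2, and Gm15821 (6.73 and 4.18) overlaps Tap2 on the other strand. The sources used here do not say whether counting used strand, so reads of such partners cannot be told apart. The table gives Psmb9 under ENSMUSG00000024337, which differs from the GENCODE M21 identifier ENSMUSG00000096727, and it was matched by symbol. Identifiers of the 9 others are the same in both, such as ENSMUSG00000037321 for Tap1 and ENSMUSG00000024339 for Tap2.

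The other 6 genes lie farther off. On chromosome 17 Tapbp spans chr17:33915899-33929292 (plus), H2-K1 chr17:33996017-34000347 (minus) and H2-D1 chr17:35262730-35267499 (plus). B2m lies at chr2:122147686-122153083 (plus), where the antisense Patl2 overlaps it with 1 and 0 reads. Psmb10 lies at chr8:105935735-105938444 (minus), overlapped by the antisense Gm16156 at 4.92 and 2.85, and Psme2 at chr14:55587441-55591113 (minus).

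Of 23 listed neighbours in the MHC region 15 reached the level for comparison and all 15 were within 2-fold with a pseudocount of 1. Log2 ratios were below 0 in 13 of the 15, with a median of -0.48 and a range from -0.97 to 0.87. Most compared genes of the whole table lay below 0 too, as only 37.3% were above it. The count below 0 was 12 with the median of all genes set to 0 and 10 with equal sums. Under each of 3 other scalings 1 of the 15 was past 2-fold upward, and with a pseudocount of 0.1 or none 1 was past it downward. H2-DMa, a class II-like gene whose product helps load class II molecules, was 2.11 and 0.594, from 85 and 25 reads, a log2 ratio of -0.97 but 3.56-fold lower without a pseudocount (2.25 to 5.80). H2-DMa gave the lowest value of that range and reached the level for comparison through the control alone, so it had to differ. The other 7 listed class II genes did not reach the level for comparison, with 26 and 17 reads for H2-Eb1 and at most 6 in either library for the 6 others.

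**Figure D4:**
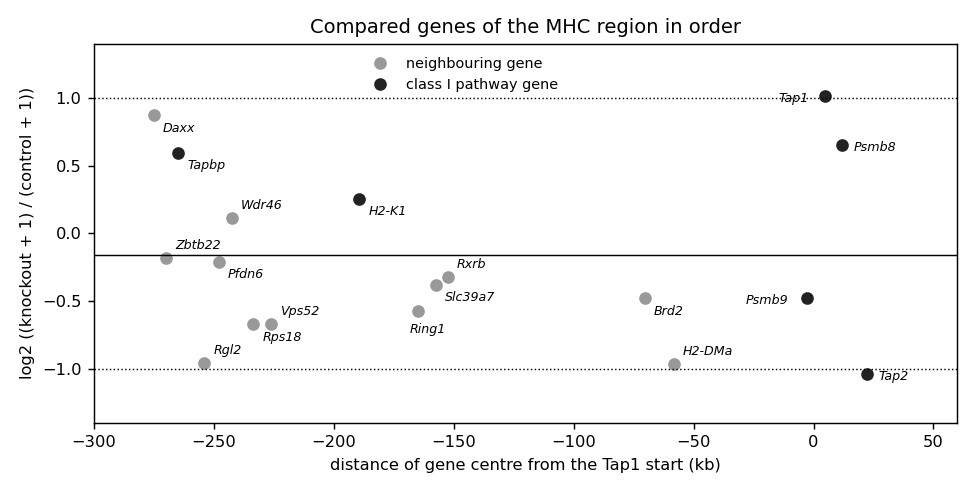
Log2 ratio of compared genes around Tap1 in the MHC region against the distance of the gene centre from the Tap1 start in kilobases, with class I pathway genes in black and neighbouring genes in grey; the solid line is the median of all compared genes and dotted lines mark 2-fold. Psmb9 (-0.48), Tap1 (1.01), Psmb8 (0.65) and Tap2 (-1.04) lie side by side at the right. The listed and compared genes Kifc1, Phf1 and Cuta lie outside the stretch drawn.

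Among other class I and class I-like heavy chains most log2 ratios were close to those of H2-K1 and H2-D1, while their levels were lower. Of 29 listed, 22 had an entry and 14 were compared: 1 was higher by at least 2-fold, 1 lower and 12 within 2-fold, with a median log2 ratio of 0.08. Over all compared genes 4.0% were higher and 9.58% lower, so these counts are near the background. The higher one was H2-T24, a gene of the H2-T group, at 9.39 in control and 40.9 in the knockout, or 4.35-fold higher (3.89 to 4.88). Only 3.23% of its 50-base stretches occur in other genes. The lower one was Fcgrt, the neonatal Fc receptor, which pairs with B2m and recycles IgG rather than presenting peptides, at 15.5 and 0.808, or 19.2-fold lower (13.6 to 27.9), and it reached the level for comparison through the control alone. The 12 others lay between -0.12 and 0.62, and many H2-Q and H2-T genes share long stretches, 44.7% of 50-base stretches for H2-T22 and 34.97% for H2-Q6.

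Other genes of peptide loading and trimming gave no call. All 14 compared were within 2-fold, from -0.62 to 0.71, with a median of -0.06. The rest of the proteasome was similar: all 12 compared core subunits outside the catalytic pairs were within 2-fold (median 0.03), as were all 18 subunits of the 19S regulatory particle (median 0.02, from -0.49 to 0.48) and 12 other activators, inhibitors and assembly factors (median -0.04). One core subunit, Psma8, singled out after its values were seen, was 7.80 and 3.73, a log2 ratio of -0.90 but 2.09-fold lower without a pseudocount.

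Several genes for known transcriptional regulators of class I were past 2-fold. Of 14 listed 13 were compared, 4 were higher by at least 2-fold, 1 lower and 8 within 2-fold, beside 13.6% of all compared genes past 2-fold in either direction. Stat2, which carries the interferon signal to the nucleus, was 8.10 and 24.2 (2.99-fold higher, 2.64 to 3.40). Irf9, which binds the interferon response element, was 7.58 and 33.7 (4.45-fold, 3.93 to 5.05). Irf8, a factor of the myeloid lineage, was 0.745 and 9.45 (12.7-fold, 8.74 to 19.05) and reached the level for comparison through the knockout alone. Rfxap, a subunit of the RFX complex that binds the promoters of MHC genes, was the lower one at 4.10 and 1.33 (3.08-fold lower, 2.26 to 4.25). With a pseudocount of 5, a mean level of at least 5 or equal sums, 0 regulators were past 2-fold downward.

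The remaining regulators lay within 2-fold. Nlrc5, the transactivator of class I genes, came nearest at 9.64 in control and 17.8 in the knockout, or 1.84-fold higher (1.63 to 2.09). With equal sums 5 regulators rather than 4 were past 2-fold upward, Nlrc5 being the addition. Irf1, a factor that binds the class I and Psmb9 to Tap1 promoters after interferon gamma, was 6.58 and 6.65, a fold of 1.01 (0.851 to 1.20). Irf2 was 17.0 and 20.7, Rfx5 15.0 and 20.3, and Rfxank, the remaining RFX subunit, 35.1 and 22.4. The NF-kappa B genes Nfkb1 and Rela were 101 and 97.7, and 39.9 and 29.2, and Creb1 was 22.2 and 25.7. Reads of Ciita, the class II transactivator, numbered 1 and 0, both at or under the limit of 3 reads, which corresponds to levels of 0.0745 and 0.0713.

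Beside these, 16 interferon-stimulated genes were looked up after the data had been seen. Of these, 14 were compared and 14 were past 2-fold upward, beside 4.0% of all compared genes. Their log2 ratios ran from 1.96 to 5.59 with a median of 3.65. Most of the 14, such as Ifit1 (0.0497 and 14.9), reached the level for comparison through the knockout alone and had to differ. The count, range and median are therefore no measure of how often or how far such genes differ. Bst2, with a level above 1 in both libraries, was 5.89 and 45.97, 7.81-fold higher (6.82 to 8.97), and Irf7 was 1.34 and 43.3, 32.2-fold higher (24.6 to 43.1). The 2 genes not compared, Mx1 (0.0497 and 0.998) and Gbp2 (0.0248 and 0.404), had log2 ratios of 0.93 and 0.45, which the pseudocount shrinks at such low levels. Without it Mx1 was 20.1-fold higher (5.22 to 171), from 2 and 42 reads. Gbp2 was 16.3-fold higher (2.55 to 679), from 1 and 17 reads. How these genes differ from the 10 class I and immunoproteasome genes was not tested.

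**Figure D5:**
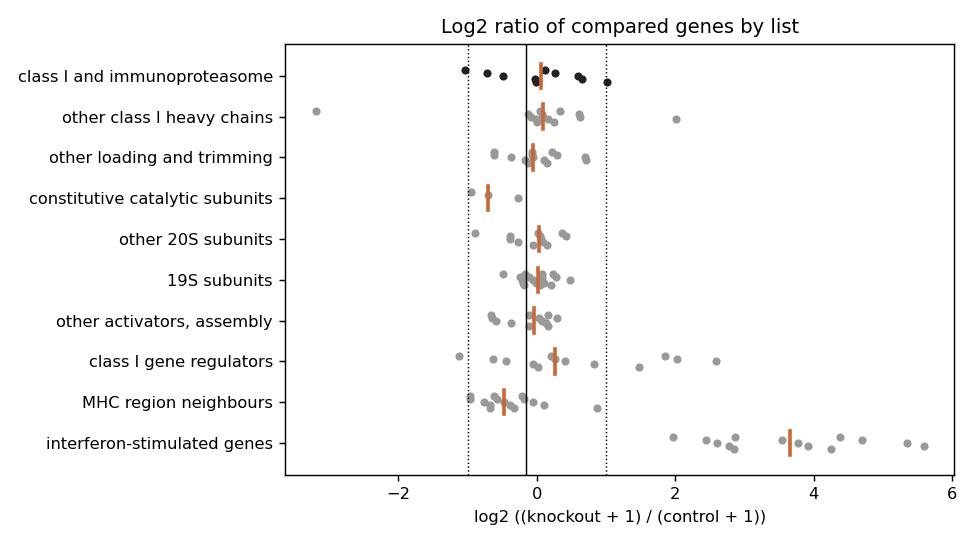
Log2 ratio (pseudocount of 1) of every compared gene in each list, with the list median as an orange bar, the median of all compared genes as a solid line and 2-fold as dotted lines. The class I and immunoproteasome genes spread from -1.04 to 1.01 around a median of 0.06. The 14 compared interferon-stimulated genes lie from 1.96 upward, but most were compared through the knockout alone and had to differ. Mx1 and Gbp2 are left out by the level filter.

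By level per kilobase the order of the 10 genes was partly the same in both libraries. In the control it ran B2m (230), H2-D1 (92.6), H2-K1 (45.2), Tapbp (20.5), Psme2 (11.8), Tap2 (10.9), Psmb10 (9.29), Psmb8 (8.65), Tap1 (4.17) and Psmb9 (2.43). In the knockout the first 4 and the last kept their places, and between them stood Psmb8 (13.9), Psme2 (11.8), Tap1 (8.78), Psmb10 (5.36) and Tap2 (5.15). The counting intervals of Psme2 and Tap2 overlapped in the control, as did those of Psmb10 and Psmb8, and in the knockout those of Psmb10 and Tap2. Psmb8 and Psme2 did not overlap in the knockout, at 13.1 to 14.9 and 10.7 to 12.9. Transcript lengths come from GENCODE M21 and the isoforms made in these cells were not measured, so this order is approximate.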

How the data were processed

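Polyadenylated RNA of 1 control and 1 MMP9 knockout library was measured by Illumina sequencing, per the labels' protocols, and reads were aligned with TopHat to a mouse build given as mm9, per the submitters' processing notes. Nothing in the sources used here gives the counting program, annotation, strand or normalisation. The deposited table, titled as normalised RPKM, holds log2 values. After conversion the values were whole multiples of 1 step per library whatever the gene (0.0248 in control, 0.0238 in knockout), 99.99% of them within 0.05 of a whole read, so they were taken as reads times 1 factor, without division by length. Genes at 0.9 of a step were set to 0. Columns were matched to samples by title.

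Log2 ratios used a pseudocount of 1, which understates differences of low genes, and genes with a mean level of at least 1; printed folds use none. Fold intervals are exact conditional binomial (95%), those of levels exact Poisson, and those of a difference of ratios use a normal approximation on the log scale; the recovery was tested on simulated data. Positions are GRCm38, another build than the authors'. Named were all 10 genes, the regulators and catalytic subunits in full, and list genes past 2-fold (at most 6 per list), except 1 regulator that is counted but not reported here. Osteoclast and macrophage markers are given by count and sum. Acp5, Ctsk, Cd14, Cd68, the markers compared through 1 library, interferon-stimulated genes, class II genes, H2-T22, H2-Q6, Lck, Itgax, Zbtb46, Psme1 and Psma8 were named after their values were seen. Members and lists were chosen with earlier results of these data known; the interferon-stimulated list and the motifs came after the data were seen. Python 3.11.15, numpy 2.4.6, pandas 2.3.3 and scipy 1.17.1 were used.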

Additional observations from a re-analysis of the deposited data

How the results depend on the processing

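No paired analysis was possible because each genotype has a single library, which also means that none could be left out in turn. A pseudocount of 5 shrinks the ratios of low genes by construction: of the 10 genes 0 were then past 2-fold upward and 0 downward, and over all compared genes 255 and 603, against 445 and 1066. The scalings shift the log2 ratios by 0.18 (median of 0), 0.19 (trimmed mean, without weights) and 0.29 (same sum). Under each of these 0 of the 10 genes were past 2-fold downward, Tap1 stayed past 2-fold upward, and the median of the 10 was 0.23, 0.24 and 0.34. The split of calls over all compared genes went to 566 higher and 798 lower, 572 and 791, and 674 and 684. Of the 10 genes, H2-D1 and Psme2 changed sign under the 3 scalings and the other 8 did not; a pseudocount cannot change a sign. A mean level of at least 5 leaves out Psmb9. Over single genes and context lists, 188 alternative values stayed within the counting interval or within 1.5 times the count and 35 did not. This tally is no measure of stability, since a level filter cannot change the ratio of a gene and many list counts were 0 throughout. Under each of the 3 scalings H2-K1, H2-D1, B2m, Tap1, Tap2, Tapbp and Psmb8 left their counting intervals. Psmb10 and Psme2 left theirs with the same sum only, and Psmb9 under none. The ratios of inducible to constitutive subunits do not depend on scaling, and a pseudocount of 1 left them within their counting intervals. The values without a pseudocount were added after the data were seen. Depth limits Psmb9 most.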
